A study of Mus musculus with 12 samples.

Results

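The genes described here encode 8 proteins of mechanosensing and acid sensing, namely Piezo1, Piezo2, Asic1, Asic2, Asic3, Tmc1, Tmc2 and Stoml3. They were chosen by gene symbol and not by a cut on their values, though with earlier results of these data known. They are 8 of the 22609 genes that each file lists. The files hold Piezo1 and Piezo2 as Fam38a and Fam38b, and Asic1, Asic2 and Asic3 under the older names Accn2, Accn1 and Accn3. RNA was sequenced from sensory neuronal fractions that had been enriched by density on a Percoll gradient. They came from dorsal root ganglia (DRG), whose neurons serve the trunk and limbs, and from trigeminal ganglia (TG), whose neurons serve the head. There were 12 libraries in 4 groups of 3, 1 for each sex of each ganglion. All mice were naive animals, of the strain C57BL in the labels and C57BL/6J in the study's methods, and no group carried a transgene, an injury or a treatment. The labels give an age of 3 to 4 months and the methods a younger one. The methods also state that females were in the estrous phase and that DRG were lumbar. The series names 3 females and 3 males as the source of both ganglia, so TG and DRG libraries are likely to share animals. It does not say whether the TG and DRG libraries of the same number came from the same animal. The p-values measure the spread between these libraries, which the main tests treated as independent.

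Piezo channels open when the membrane is stretched or indented, and Piezo2 is the main transducer of gentle touch and of proprioception in sensory neurons, while Piezo1 is best known in endothelial cells and red blood cells. Acid-sensing ion channels (ASICs) belong to the same family as the epithelial sodium channel, are opened by extracellular protons and form complexes of like or mixed subunits, and in ganglia they are known for the response of muscle, heart and skin afferents to acid. Tmc1 and Tmc2 are components of the mechanotransduction channel of inner ear hair cells. Stoml3 is a stomatin-like membrane protein that raises the mechanical sensitivity of touch receptors.

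Reads in genes ran from 7511765 to 15396090 per library, and 3 reads, taken as a floor for counting error, corresponded to 0.195 to 0.399 CPM. CPM is a gene's count per 1000000 reads in genes of its library, scaled by TMM factors, and RPKM is CPM per kilobase of the gene's exons. In a principal component analysis female DRG 1 stood apart from the other libraries on the first component (25.1% of the variance) and female TG 3 on the third. All 8 pan-neuronal markers were detected in every library, with summed levels of 3718.3 to 7728.6 CPM in DRG and 3562.5 to 6415.4 CPM in TG. Transcripts of other cells were also present in all libraries, with sums of 2657.7 to 7009.7 CPM for 6 satellite glia markers and 1790.5 to 2815.7 CPM for 5 Schwann cell markers, 618 to 2185.3 CPM for 6 fibroblast markers, 65.7 to 260 CPM for 6 macrophage markers and 185 to 486 CPM for 5 mural cell markers. Of 5 red blood cell markers, the 4 haemoglobin genes had 0 reads in all libraries. The other marker, Alas2, was detected in all of them, at 2.80 to 20.3 CPM. Of all entries counted per library, 38.4% to 49.5% were set aside as not uniquely aligned. Their part in the 0 reads was not tested, so these do not show that red blood cells were absent. In these bulk samples, fewer cells of a type and less RNA per cell cannot be told apart.

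Compared per length, Piezo2 and Asic3 were the most abundant of the 8 transcripts in both ganglia. In DRG, Piezo2 had 36.7 ± 7.15 RPKM and Asic3 27.8 ± 6.40 RPKM (SD, n = 6), and Piezo2 was the higher in 5 of 6 libraries with overlapping ranges. Asic2 followed at 10.8 ± 2.06 RPKM, below the whole range of Asic3, then Asic1 at 6.73 ± 2.08 RPKM and Piezo1 at 1.92 ± 2.05 RPKM, each of which overlapped with its upper neighbour. In TG the order began with Asic3 at 51.8 ± 13.8 RPKM, followed by Piezo2 at 37.0 ± 9.51 RPKM, with overlapping ranges and Asic3 higher in 5 of 6 libraries. Asic1 came next in TG at 9.78 ± 3.96 RPKM, below every value of Piezo2, and it overlapped with Asic2 at 7.36 ± 1.04 RPKM. Piezo1 had 1.26 ± 0.992 RPKM in TG, below every value of Asic2. Tmc1, Tmc2 and Stoml3 were under 1 RPKM on average in both ganglia, and their ranges overlapped with each other, as did those of Piezo1 and Tmc1. The order of the 8 genes within each ganglion was the same when the longest transcript replaced the exon union as length.

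**Figure D1:**
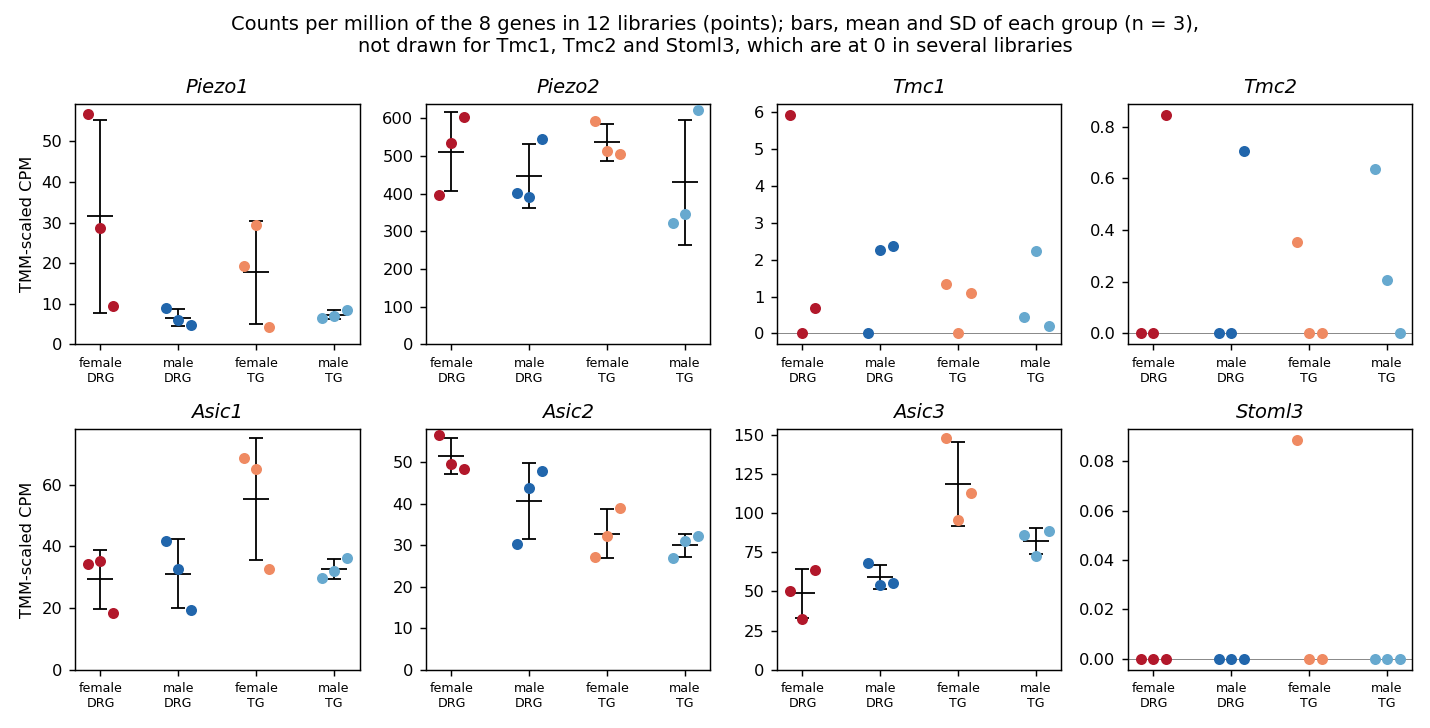
CPM of each of the 8 genes (vertical axes, CPM) in the 12 libraries (points), by sex and ganglion, with the mean and SD of each group of 3 as bars for the 5 genes detected in all libraries. The 6 TG libraries lie above the 6 DRG libraries for Asic3 (72.7 to 148 against 32.4 to 68.0 CPM), and Piezo1 is highest in female DRG 1 at 56.7 CPM.

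The promoters of the 3 ASIC genes are shown because these genes had the smallest p-values of the 8 for TG against DRG, in opposite directions. Each window holds the 250 bases before a RefSeq transcription start in the build GRCm38.p6, read 5′ to 3′ on the gene's strand, with CG dinucleotides in capitals. The Asic3 window is chr5:24413201-24413450 and the Asic1 window chr15:99691974-99692223, both on the plus strand. RefSeq lists 2 starts for Asic2 on the minus strand, at chr11:81152904-81153153 and chr11:81968397-81968646, and a count per gene cannot separate them. The counts were made on the build mm9, so these positions cannot be set against those of the counted genes given with each gene.
Asic3: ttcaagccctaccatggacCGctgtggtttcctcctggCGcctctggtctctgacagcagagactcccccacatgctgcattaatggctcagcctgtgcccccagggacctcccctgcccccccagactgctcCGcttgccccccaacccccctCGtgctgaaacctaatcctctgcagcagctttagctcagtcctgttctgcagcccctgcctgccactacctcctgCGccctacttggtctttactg
Asic1: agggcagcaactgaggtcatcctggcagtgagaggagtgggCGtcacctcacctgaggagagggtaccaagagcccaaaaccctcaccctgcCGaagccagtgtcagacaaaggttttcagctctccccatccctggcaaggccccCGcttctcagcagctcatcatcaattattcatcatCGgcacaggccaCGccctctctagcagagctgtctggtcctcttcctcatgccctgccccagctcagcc
Asic2 start 1: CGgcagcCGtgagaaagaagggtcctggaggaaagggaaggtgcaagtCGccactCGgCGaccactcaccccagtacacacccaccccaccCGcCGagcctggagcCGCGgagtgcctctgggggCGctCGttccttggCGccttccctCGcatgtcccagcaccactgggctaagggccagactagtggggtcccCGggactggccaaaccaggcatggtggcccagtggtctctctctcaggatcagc
Asic2 start 2: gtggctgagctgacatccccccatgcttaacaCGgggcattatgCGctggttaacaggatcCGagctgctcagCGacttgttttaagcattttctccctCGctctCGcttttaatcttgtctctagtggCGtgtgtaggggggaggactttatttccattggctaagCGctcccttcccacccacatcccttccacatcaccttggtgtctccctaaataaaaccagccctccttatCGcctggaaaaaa

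The Asic3 and Asic1 windows each held 5 CG dinucleotides, below the median of 6 over the 32851 mouse windows in the RefSeq table. The first and second Asic2 windows held 14 and 9. On either strand, none of the 4 windows held the letters GGGCGG, found in 32.7% of all windows, or TATAAA, found in 12.4%. CCAAT, found in 33.8% of all windows, occurred 1 time in the second Asic2 window. CANNTG, found in 66.2%, occurred 2 times in the Asic1 window and 1 time in the Asic3 window. These matches are a description of the letters in these windows. A window was listed for 6 of the 8 genes, and Piezo2 and Tmc2 had no entry.

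The first comparison asked which of the genes differed between the ganglia. Asic3, the subunit most closely tied to acid sensing in peripheral afferents, was the gene that rose in TG. The gene (ENSMUSG00000038276.7) lies on the plus strand of mm9 chromosome 5 from 23919269 to 23923652 and has 1942 exon bases. In the 6 TG libraries the lowest, median and highest levels were 72.7, 92.0 and 148 CPM, and in the 6 DRG libraries they were 32.4, 54.8 and 68.0 CPM. Every TG library was thus above every DRG library, a separation found in either direction for 203 of the 14829 genes tested (1.37%). TG libraries averaged 101 ± 26.8 CPM and DRG libraries 54.0 ± 12.4 CPM (SD over n = 6 each), and the log2 fold change was 0.88 (SE 0.19, 95% confidence interval 0.47 to 1.29) or 1.84-fold. The edgeR adjusted p was 0.0353, rank 118 of all genes by p. It was the only called gene among the 6 members that passed the filter on low counts, against 143 genes (0.964%) called over all and 93 (0.627%) called higher in TG. Asic3 did not reach the stricter criterion that also asks for a fold above 2, which 114 genes (0.769%) met.

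The Asic3 call depended on which library was left out. With each library left out in turn the log2 fold change was 0.76 to 1.0, and edgeR's adjusted p was 0.157 without female TG 1, 0.121 without male DRG 2, 0.0995 without female DRG 2, 0.0894 without male TG 1, 0.0839 without male TG 3, 0.0716 without male TG 2, 0.0704 without male DRG 3, 0.0605 without male DRG 1 and 0.0527 without female DRG 1. In the other 3 of the 12 fits the call stood, with 0.0120 without female DRG 3, 0.0327 without female TG 3 and 0.0434 without female TG 2. Without female DRG 1 and female TG 3 together, the 2 libraries that stood apart, the log2 fold change was 0.90 (adjusted p = 0.0356). A correction for GC content and length gave 0.73 (adjusted p = 0.178).

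Within the sexes, the 3 female TG libraries had 148, 95.4 and 113 CPM of Asic3 and the 3 female DRG libraries 50.6, 32.4 and 63.7 CPM. The 3 male TG libraries had 85.8, 72.7 and 88.5 CPM, and the 3 male DRG libraries 68.0, 54.3 and 55.3 CPM. TG was above DRG without overlap in both sexes, which follows from every TG library being above every DRG library. The log2 fold changes were 1.29 in females (edgeR adjusted p = 0.612) and 0.47 in males (adjusted p = 0.766). The difference between these effects had a log2 value of 0.81 (SE 0.39), with an edgeR unadjusted p of 0.0521, and an adjusted p of 1.0, and 292 of all genes (1.97%) had an unadjusted p under 0.05 for it.

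Asic2, a subunit that takes part in mixed ASIC channels and shifts their sensitivity to protons, had the opposite direction but did not pass the adjusted threshold. It lies on the minus strand of chromosome 11 from 80693671 to 81781959 (ENSMUSG00000020704.7, 4264 exon bases). Its lowest, median and highest levels were 26.8, 31.6 and 39.0 CPM in TG and 30.2, 48.1 and 56.5 CPM in DRG. The overlap came from a single DRG library, male DRG 1 at 30.2 CPM, since the other 5 DRG libraries were at 43.9 CPM or above. The log2 fold change was -0.55 (SE 0.19, 95% confidence interval -0.95 to -0.14), with an edgeR unadjusted p of 0.0112, a level that 1310 genes (8.83%) passed, and an adjusted p of 0.304. It was negative under all 21 alternatives, between -0.74 and -0.45.

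Asic1, the subunit of acid-evoked currents that is widely expressed in brain and ganglia, had 29.9, 34.3 and 68.6 CPM as lowest, median and highest TG levels and 18.4, 33.5 and 41.6 CPM in DRG. The gene lies on chromosome 15 from 99501149 to 99531561 (ENSMUSG00000023017.8, 4498 exon bases). The ganglia overlapped, and 2 female TG libraries, at 68.6 and 65.0 CPM, were above all others. The log2 fold change was 0.49 (SE 0.25, 95% confidence interval -0.04 to 1.02, adjusted p by edgeR 0.620), with 0.92 in females and 0.07 in males. The medians of the ganglia lay close together.

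Since the ASIC genes went in different directions, their make-up was described per library as each gene's share of the summed ASIC RPKM. Asic3 made up 60.7% ± 8.57 of the sum in DRG and 74.9% ± 3.65 in TG (SD, n = 6 each), with ranges of 46.1% to 68.2% and 69.1% to 78.1% that did not overlap. Asic2 made up 24.3% ± 6.20 in DRG and 11.1% ± 2.57 in TG, with ranges of 13.8% to 32.2% and 6.50% to 14.1%. Asic1 held 15% ± 5.04 in DRG and 14% ± 3.67 in TG. The ratio of Asic3 to Asic2 RPKM was 1.97, 1.43 and 2.89 in female DRG, 4.95, 2.72 and 2.54 in male DRG, 12, 6.49 and 6.38 in female TG, and 7.04, 5.13 and 6.06 in male TG. The highest DRG value, 4.95, was below the lowest TG value, 5.13. Like the shares, this ratio was chosen after the levels of both genes were seen and is given as a description, without a test. Shares and ratio restate the ASIC levels given above, so their separation between ganglia is not a further result.

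**Figure D2:**
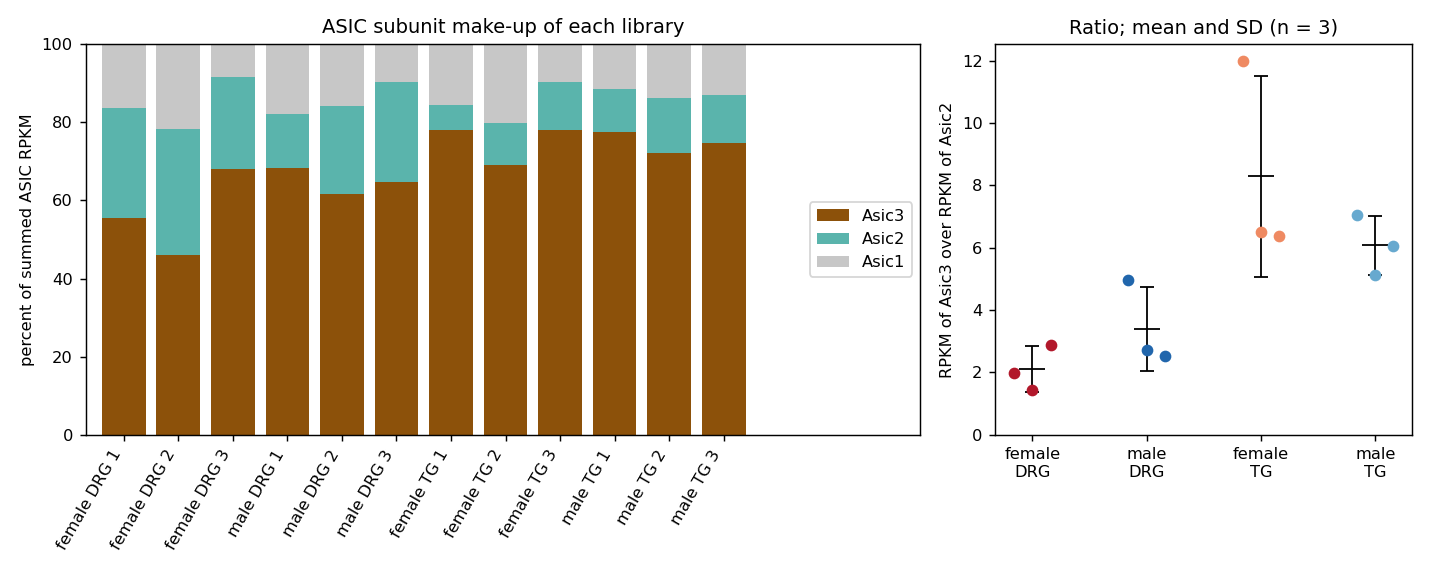
Left, the percent of the summed ASIC RPKM taken by Asic3, Asic2 and Asic1 (vertical axis) in each library. Right, the ratio of Asic3 to Asic2 RPKM by library (points) with the mean and SD of each group of 3; the TG ratios run from 5.13 to 12 and the DRG ratios from 1.43 to 4.95.

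**Figure D3:**
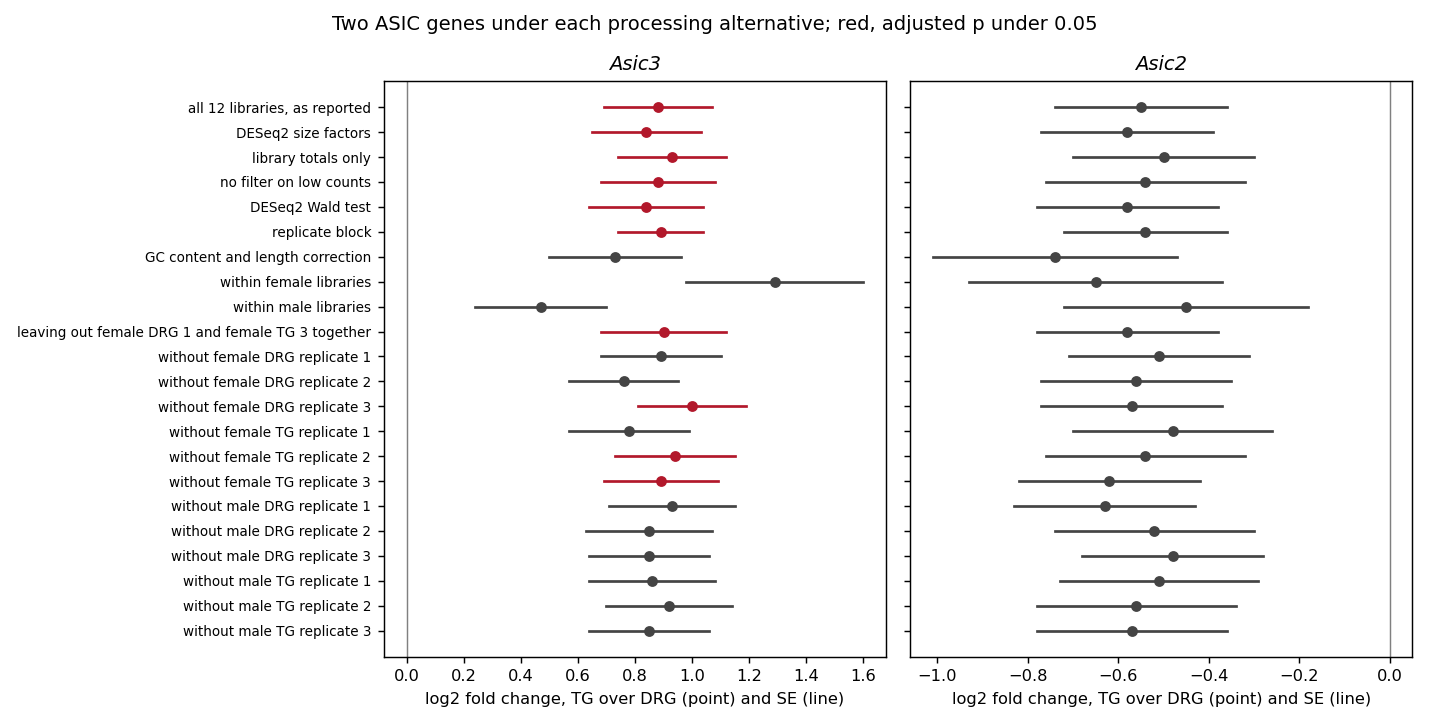
Log2 fold change of TG over DRG (points, with the SE as lines) for Asic3 and Asic2 as reported and under each of 21 alternatives, in red where the adjusted p was under 0.05. Asic3 stays between 0.47 and 1.29 and is called in 9 of the 21, while Asic2 stays between -0.74 and -0.45 and is not called in any of them.

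Sums of neuronal subtype markers are given beside these values, without a test. The summed CPM of 8 low-threshold mechanoreceptor markers ran from 1681.3 to 2450.5 over TG libraries and from 1360.1 to 1659.8 over DRG libraries. These ranges did not overlap, and 1 of the 8, Ret, was called higher in TG, as were 0.627% of all genes. Among single genes 1.37% did not overlap between the ganglia, and no such share was worked out for sums. Ret had the highest mean of the 8 in both ganglia, at 816 ± 205 CPM in TG and 473 ± 85.0 CPM in DRG. Maf, Calb1 and Ldhb had log2 fold changes of 0.81, 0.80 and 0.51, and Nefh and Ntrk2 had 0.18 and 0.17. Necab2 was also higher in TG, while Ntrk3 went the other way at -0.20. The sum of 5 proprioceptor markers ran from 178 to 283 over TG libraries and from 212 to 517 over DRG libraries, with overlap and with 1 of 5 called higher in DRG. The sum of 4 markers of C-fibre low-threshold mechanoreceptors ran from 150 to 241 and from 262 to 375, without overlap and with 1 of 4 called higher in DRG, and that of 8 nociceptor markers from 3142.7 to 4721.5 over TG and from 4433.0 to 6663.5 over DRG libraries, with overlap and with 1 of 8 called higher in DRG. Genes called higher in DRG were 0.337% of all genes. Those of these lists were Etv1 (log2 fold change -1.16), Th (-3.50) and Mrgprd (-0.78), and Pvalb had -1.10. Every nociceptor marker was lower in TG, from -0.24 for Tac1 to -0.78 for Mrgprd. An unadjusted edgeR p under 0.05 was found for 5 of these 8, against 620 of 14829 genes in that direction. It was found for 4 of the 8 low-threshold mechanoreceptor markers, against 690 genes higher in TG. In every library at most 1 gene of each of these marker lists was at 0. Their part in the Asic3 and Asic2 values was not tested.

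Piezo2 differed little between ganglia. The gene (ENSMUSG00000041482.8) lies on the minus strand of chromosome 18 from 63169867 to 63546837 and has 13036 exon bases. Its lowest, median and highest levels were 322, 508 and 621 CPM in TG and 392, 468 and 604 CPM in DRG, so that the ranges overlapped almost wholly. The log2 fold change was 0.00 (SE 0.19, 95% confidence interval -0.40 to 0.41, adjusted p by edgeR 1.0), so that a difference within these bounds is not excluded. These bounds are not the limit of what the test could call. Its coefficient of variation over the 12 libraries was 21.8%, the lowest of the 8 genes, against 99.0% for Piezo1. Within each ganglion Asic2 varied less, at 14.1% against 25.7% for Piezo2 in TG and 19.1% against 19.5% in DRG.

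Piezo1, which responds to shear and stretch in many non-neuronal cells, varied most among the genes detected in all libraries. The gene (ENSMUSG00000014444.9) lies on the minus strand of chromosome 8 from 125005598 to 125075229 and has 9933 exon bases, of which 2441 overlap exons of Ctu2 on the opposite strand. The strand setting of the counting is not given in the sources used here. Its lowest, median and highest levels were 4.32, 7.77 and 29.5 CPM in TG and 4.88, 9.26 and 56.7 CPM in DRG. The log2 fold change of TG over DRG was -0.35 (SE 0.43, 95% confidence interval -1.24 to 0.55, edgeR adjusted p = 0.957). Its sign turned without female DRG 1 (0.02) and in males alone (0.15). The ratio of Piezo2 to Piezo1 RPKM ran from 5.32 in female DRG 1 to 88.7 in female TG 3.

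The hair cell gene Tmc1 was detected in part of the libraries, and Tmc2 and Stoml3 were at or near the limit of detection. Tmc1 (ENSMUSG00000024749.7, chromosome 19 from 20857948 to 21028692) had 50, 0 and 8 reads in the 3 female DRG libraries, 0, 24 and 30 in male DRG, 15, 0 and 14 in female TG and 5, 32 and 2 in male TG. Reads were thus present in 9 of 12 libraries without a division by ganglion, and the log2 fold change was -1.05 (SE 1.36, 95% confidence interval -3.92 to 1.81, edgeR adjusted p = 0.959). Without female DRG 1, which held 50 of the 180 reads, it was 0.27. Tmc2 (ENSMUSG00000060332.2, chromosome 2 from 130020930 to 130090181) had 14 reads in 3 TG libraries and 19 reads in 2 DRG libraries, at 7 of 12 libraries without a read. It did not pass the filter on low counts, and an exact two-sided permutation test over libraries of the mean CPM gave p = 0.773.

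Stoml3 (ENSMUSG00000027744.3, chromosome 3 from 53292649 to 53312424) had a single read, in female TG 1, and 0 reads in the other 11 libraries. A permutation test would say nothing here, since a single read gives the same difference in every division of the libraries. A level under 3 reads, or 0.195 to 0.399 CPM depending on the library, could have gone undetected at this depth. Tmc2 and Stoml3 are given no fold change.

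**Figure D4:**
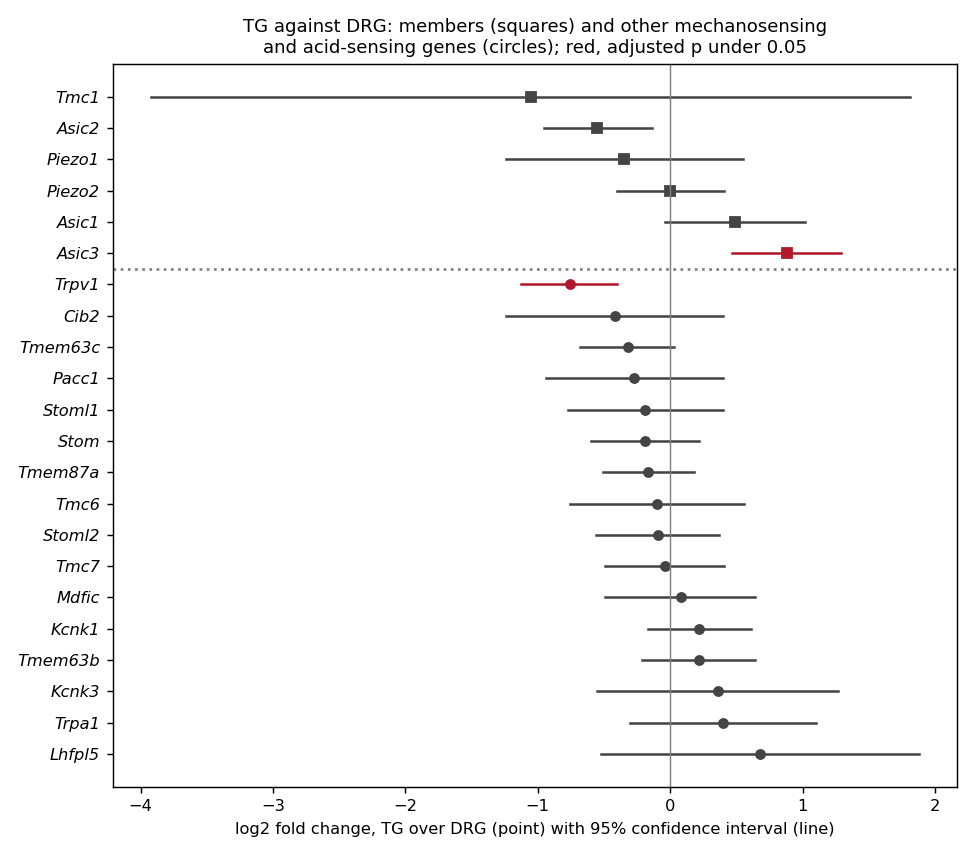
Log2 fold change of TG over DRG (points) with 95% confidence intervals (lines) for the 6 tested members (squares, above the dotted line) and for 16 other mechanosensing or acid-sensing genes (circles). Asic3 at 0.88 and Trpv1 at -0.76, in red, had an adjusted p under 0.05, and the interval of Tmc1 spans -3.92 to 1.81.

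Other genes of these pathways were taken from 5 lists, described by their counts, and over all 14829 genes the median log2 fold change of TG over DRG was -0.01. Of 12 other proton sensors 10 were tested, with a median of -0.02, and 1 was called. Trpv1, the capsaicin receptor that protons also gate, fell from 127 ± 29.8 CPM in DRG to 74.6 ± 12 CPM in TG (SD over n = 6 each), by a log2 fold change of -0.76 with an SE of 0.17 (adjusted p by edgeR 0.0425). Trpv1 had the same direction under all 21 alternatives (-0.92 to -0.66) but was called in 9 of them, and among the leave-one-out fits it was called only without female TG 3 (adjusted p = 0.0380) and without male DRG 1 (0.0417), with 0.0506 to 0.177 in the other 10. The potassium channels Kcnk1 and Kcnk3, the second of which protons close, had log2 fold changes of 0.22 and 0.36, and the proton-activated chloride channel gene Pacc1 had -0.27. None of these passed.

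Of 13 other mechanically gated or candidate channels all 13 were tested and 0 were called by edgeR's adjusted p (1 had an unadjusted p under 0.05), with a median of -0.15. The most abundant per length were Tmem63c (25.8 RPKM, log2 fold change -0.32), Trpa1 (21.0 RPKM, 0.40), Tmem87a (19.4 RPKM, -0.17) and Tmem63b (15.8 RPKM, 0.22). Tmem63 proteins are channels gated by membrane tension or osmolarity, and Trpa1 is the irritant receptor of nociceptors. Each of these 4 had a higher RPKM over the 12 libraries than Asic1, at 8.26 ± 3.41, or Asic2, at 9.08 ± 2.37.

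Of 13 other TMC genes and hair cell partners 10 were tested and 0 were called (1 had an unadjusted p under 0.05), with a median of 0.06. Tmc7 had 9.74 RPKM (log2 fold change -0.04) and Tmc6 5.40 RPKM (-0.10), against 0.306 ± 0.377 RPKM for Tmc1 over the 12 libraries. Lhfpl5, a hair cell partner of the TMC channel, had 13.9 RPKM (0.68), and Cib2, a calcium-binding partner of it, had 6.38 RPKM (-0.42). Of 7 stomatin family genes and binding partners 5 were tested and 0 called (0 with an unadjusted p under 0.05), with a median of -0.09. Against the single read of Stoml3, its relatives Stoml1, Stom and Stoml2 had 37.9, 25.5 and 20.4 RPKM, with log2 fold changes of -0.19, -0.19 and -0.09, and Mdfic, a partner of Piezo channels, had 2.49 RPKM (0.08). Of 5 other genes of the ASIC and sodium channel family, Asic4, Asic5, Scnn1b and Scnn1g had 0 reads in all 12 libraries and Scnn1a had at most 24 in a library, and none was tested.

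The study compared the sexes in each ganglion, and the same was done here with its criteria of a fold above 2, an unadjusted p under 0.05 and, in place of RPKM, a CPM above 1 in the higher sex. Piezo1 was the member that met them. Female DRG libraries had 56.7, 28.6 and 9.48 CPM of Piezo1 and male DRG libraries 9.04, 5.92 and 4.88 CPM. The sexes did not overlap, as in 2435 of 13958 genes (17.4%), but the lowest female and highest male values lay next to each other. Females averaged 31.6 ± 23.8 CPM and males 6.61 ± 2.16 CPM (SD over n = 3 each), and the log2 fold change was 2.27 (SE 0.58, 95% confidence interval 1.02 to 3.53). The edgeR unadjusted p was 0.00185 and the adjusted p 0.307, while 689 genes (4.94%) met the criteria in DRG and 280 (2.01%) were higher in females. An unadjusted p under 0.05 alone was found for 1649 genes (11.8%), of which 536 (3.84%) were higher in females. Piezo1 met them in all 13 alternatives, with the lowest value, 1.27, after the GC content and length correction and 1.53 without female DRG 1, the highest library.

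In TG the female libraries had 19.3, 29.5 and 4.32 CPM of Piezo1 and the male libraries 6.38, 7.0 and 8.54 CPM. The sexes overlapped, since female TG 3 was the lowest of the 6. The log2 fold change was 1.34 (SE 0.57, 95% confidence interval 0.09 to 2.58), with an edgeR unadjusted p of 0.0376 and an adjusted p of 0.222, and 1033 of 14004 genes (7.38%) met the criteria in TG, 720 (5.14%) of them higher in females. This call was met in 5 of 13 alternatives. Without female TG 2 the log2 fold change was 0.68, and it was 1.22 without female TG 1, 1.25 without male TG 1, 1.30 without male TG 2 and 1.47 without male TG 3, each with an unadjusted p above 0.05. Without female TG 3, 1 of the 2 libraries that stood apart, it was 1.74 with an edgeR adjusted p of 0.00694, while the GC content and length correction gave -0.10. The sex effects on Piezo1 in TG and DRG differed by -0.98 on the log2 scale (SE 0.85, adjusted p by edgeR 1.0).

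Endothelial marker sums moved with Piezo1 in part, and so did those of some other non-neuronal cells. The summed CPM of 7 endothelial markers, none of them at 0 in any library, was 633, 661 and 331 in female DRG and 235, 245 and 352 in male DRG. In TG it was 427, 685 and 429 in females and 344, 412 and 455 in males. The female DRG 1 and 2 libraries and female TG 2, which had the 3 highest Piezo1 levels, also had the 3 highest sums. Macrophage marker sums were 158, 230 and 71 CPM in female DRG, 75.7, 65.7 and 92.0 CPM in male DRG, 198, 260 and 137 CPM in female TG and 69.7, 122 and 146 CPM in male TG. Female DRG 2 and female TG 2 thus had the highest of these sums as well. Fibroblast marker sums ran from 1459.8 to 2185.3 CPM in female DRG, 1024.5 to 1610.2 CPM in male DRG, 1027.9 to 1690.6 CPM in female TG and 618 to 1403.6 CPM in male TG. They were highest in female DRG 2 and female DRG 1, at 2185.3 and 2095.3 CPM. In DRG the mural marker sums were 240 to 486 CPM in females and 185 to 244 CPM in males, and the pan-neuronal sums 3718.3 to 6512.2 and 5686.3 to 7728.6 CPM. The 3 highest mural sums were in the same libraries as the 3 highest Piezo1 levels. They were 486 CPM in female DRG 2, 309 CPM in female TG 2 and 290 CPM in female DRG 1, with 288 CPM next in male TG 1. Satellite glia sums were highest in female TG 2 (7009.7 CPM), while Schwann cell sums were lowest in female DRG 2 (1790.5 CPM). The ranges of the sexes overlapped for each of these lists, as for the endothelial markers. The female DRG 1, female DRG 2, female TG 1 and female TG 2 libraries had the highest Piezo1 levels and the lowest pan-neuronal sums. These sums were 3847.8, 3718.3, 3735.0 and 3562.5 CPM, and the next was 3937.9 CPM in male TG 3. The part of these cells in the Piezo1 values was not tested. Ctu2, the antisense neighbour, had 21 to 81 reads per library and log2 fold changes of female over male of 1.03 in DRG and 0.08 in TG, with edgeR unadjusted p of 0.294 and 0.896.

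The ASIC genes did not meet the criteria in either ganglion. Female TG libraries averaged 119 ± 26.8 CPM of Asic3 and male TG libraries 82.3 ± 8.43 CPM (SD over n = 3 each) without overlap, as in 3337 of 14004 genes (23.8%). The log2 fold change was 0.58 with an SE of 0.24 and an edgeR unadjusted p of 0.0342, a limit of 0.05 being passed by 2898 genes (20.7%), 1531 (10.9%) of them higher in females, and the adjusted p was 0.214. Without female TG 1 the log2 fold change was 0.35, and it was 0.13 after the GC content and length correction. Asic1 averaged 55.4 ± 19.8 CPM in female TG and 32.6 ± 3.18 CPM in male TG, and its log2 fold change was 0.81 with an SE of 0.31 (adjusted p by edgeR 0.193). The Asic1 value met the criteria without female TG 3, at 1.03 with an edgeR adjusted p of 0.00958, and was -0.08 after the GC content and length correction. In DRG the log2 fold changes of female over male were -0.27 for Asic3 (SE 0.32), -0.07 for Asic1 (SE 0.38) and 0.34 for Asic2 (SE 0.30), and that of Asic2 in TG was 0.18 (SE 0.26). Asic2 in DRG did not overlap between the sexes, with 56.5, 49.6 and 48.3 CPM in females and 30.2, 43.9 and 47.8 CPM in males, a separation found in DRG for 17.4% of genes, and its edgeR unadjusted p was 0.277. Piezo2 had 0.20 (SE 0.27) in DRG and 0.36 (SE 0.27) in TG, and Tmc1 0.52 (SE 1.88) and -0.21 (SE 1.55).

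**Figure D5:**
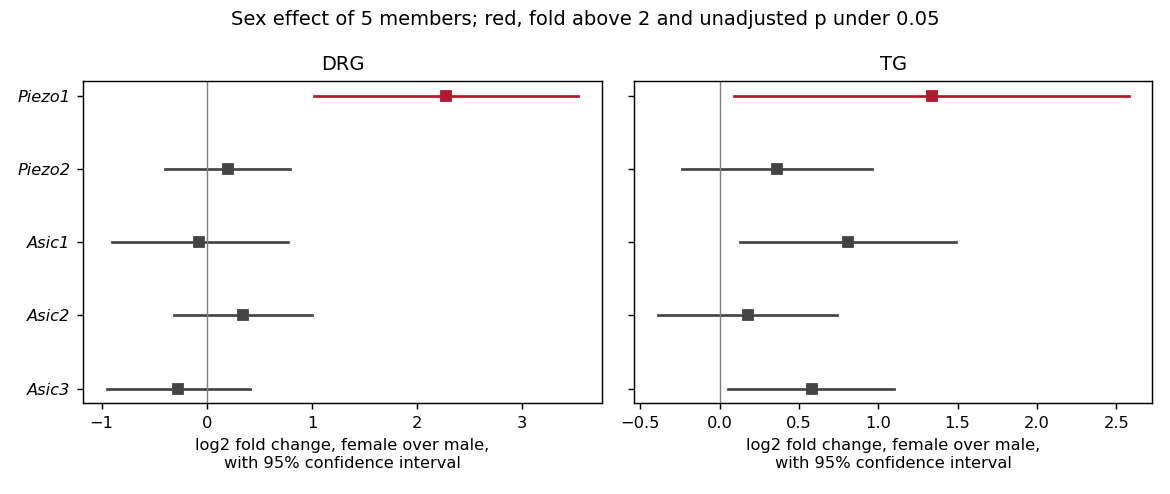
Log2 fold change of female over male (points) with 95% confidence intervals (lines) for the 5 genes detected in all libraries, in DRG (left) and TG (right); the horizontal scales differ. Piezo1, in red, met the fold and unadjusted p criteria, at 2.27 in DRG and 1.34 in TG.

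Finally, the genes whose levels were most like each member were taken as the 3 with the highest Pearson correlation of log2 CPM over the 12 libraries among 13913 genes. These values are descriptions, since the libraries share sex, ganglion and depth. For Asic3 they were Kcng4 (0.895), Meis2 (0.893) and Scn4b (0.889), and for Asic2 they were Hoxa5 (0.936), Dnajc25 (0.907) and Trpv1 (0.892). These genes themselves differed between the ganglia, with log2 fold changes of TG over DRG of 2.58 for Kcng4, 1.70 for Meis2 and 1.22 for Scn4b. Hoxa5, Dnajc25 and Trpv1 had -6.75, -0.78 and -0.76, and Hoxa5 averaged only 1.21 CPM. Kcng4 and Scn4b encode a potassium channel subunit and a sodium channel subunit, and Meis2 and Hoxa5 encode homeobox factors. The Asic2 and Asic3 levels had a correlation of -0.730 with each other, Asic1 and Asic3 of 0.487, and Asic1 and Asic2 of -0.544.

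For Asic1 the most similar genes were Kank1 (0.959), Hcn2 (0.957) and Pnkd (0.957), of which Hcn2 encodes a pacemaker channel. Piezo1 was most like Col18a1 (0.970), which encodes a basement membrane collagen, 4931406P16Rik (0.969) and Tril (0.962), and Piezo2 was most like Dock5 (0.911), Ank2 (0.890) and Sfxn2 (0.878). Between Piezo1 and Piezo2 the correlation was 0.122. For Tmc1, which had 3 libraries at 0, they were Tnfsf13b (0.906), Hist1h2bk (0.883) and 4930563E22Rik (0.878).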

How the data were processed

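Each of the 12 libraries had 1 deposited file of raw read counts per gene symbol, made by the authors without normalization. Per the labels and the study's methods, ribosomal RNA was depleted, stranded single-read libraries were sequenced, reads were aligned to mm9 with TopHat2 and counted with HTSeq. Their versions, the annotation and the strand setting are not given in the sources used here. The 5 summary lines of each file were left out; 37.6% to 50.4% of uniquely aligned reads lay outside genes. Total counts per library ran from 7511765 to 15396090, and floors of 3 counts cover counting error only.

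Groups and numbers came from the titles. TG was compared with DRG in a model of the 4 group means over the 12 libraries, and the sexes within each ganglion, without the sex-linked genes that the study sets aside in counts of calls. Tests were edgeR 4.0.16 quasi-likelihood F-tests in R 4.3.3 (limma 3.58.1) with filterByExpr (minimum count 10), TMM scaling and Benjamini-Hochberg adjustment over all genes tested. edgeR replaced the study's DESeq. All p-values are two-sided. Lengths and positions came from the GENCODE annotation of mm9, which matched 21679 genes (95.9%), 52 of them by an older symbol, and RPKM used the union of exons. Log2 CPM for correlations used a prior count of 2 and genes with a mean CPM of at least 1. Members and gene lists were chosen with earlier results of these data known. Named genes were the 8 members, from each pathway list the called genes and the 4 with the highest RPKM, and for each tested member the 3 most similar genes. Alternatives were DESeq2 1.42.0 size factors, library totals alone, no filter, the DESeq2 Wald test, a replicate block, a GC content and length correction, each sex alone, a model of all libraries and leaving out libraries.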

Additional observations from a re-analysis of the deposited data

Results flagged for a closer look

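Stoml3 in female TG 1 had 0.0887 CPM, from a single read, while the other 5 TG libraries had 0. The gap of this library to the nearest other one equalled the whole range of the group (above Dixon's critical value for 6 libraries), which follows from any single read in an otherwise empty group. The critical value is set to mark about 5% of groups by chance, but that rate does not apply to a group with a single read, which is always marked.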

How the results depend on the processing

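TG against DRG called 143 genes, with 218 without a filter, 333 with the DESeq2 Wald test, 5 in females and 58 in males alone, and 344 without female DRG 1 and female TG 3 together, an alternative chosen after seeing the data. Leaving out 1 library gave 77 (male DRG 2), 81 (female TG 1), 88 (male TG 2), 92 (male TG 1 and also male TG 3), 94 (female TG 2) and up to 231 (female TG 3), and 0 throughout for the interaction in edgeR (292 genes at an unadjusted p under 0.05). The criteria for sex gave 438 in DRG and 278 in TG after the GC content and length correction, 372 (male DRG 2), 455 (male DRG 1), 1175 (male DRG 3) to 1580 (female DRG 3) in DRG and 580 (female TG 2), 590 (male TG 1), 1592 (male TG 3) to 2527 (female TG 3) in TG. Asic3 kept its direction in all 21 alternatives and was not called after the GC content and length correction (0.73), in females (1.29) or in males (0.47), and over single left-out libraries it ran from 0.76 to 1.0. These ranges were 0.36 to 0.62 for Asic1, -0.63 to -0.48 for Asic2, -0.64 to 0.02 for Piezo1, -0.18 to 0.09 for Piezo2 and -1.82 to 0.27 for Tmc1. The Piezo2 value of 0.00 turned negative with DESeq2 size factors (-0.03), the Wald test (-0.03), the GC content and length correction (-0.22), in males (-0.06) and without both libraries (-0.05), where Piezo1 was 0.25 and Tmc1 0.13, and Piezo1 was 0.15 in males. For sex in DRG, Asic1 was 0.13 with library totals, Piezo2 -0.21 and Asic2 -0.19 after the GC content and length correction, and left-out ranges crossed 0 for Asic1 (-0.30 to 0.20) and Tmc1 (-2.16 to 1.10). For sex in TG that correction gave -0.10 for Piezo1, -0.08 for Asic1 and -0.55 for Asic2, and ranges crossed 0 for Asic2 (-0.01 to 0.26) and Tmc1 (-0.79 to 1.31), as they did for the interaction of Piezo2 (-0.05 to 0.53) and Tmc1 (-1.34 to 1.89). The model of all libraries gave 1.28 for Piezo1 in TG, with an unadjusted edgeR p of 0.0508. The median of all genes for sex moved from 0.02 to 0.19 in DRG and from 0.05 to 0.16 in TG with library totals, and to -0.10 and -0.09 with the correction. The cause was not tested. DRG levels by the longest transcript were 45.6 RPKM for Piezo2 and 13.4 for Asic2, and the TG level of Asic2 was 9.14.

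Same-numbered libraries correlated in their deviations from group means by 0.028 to 0.216 across ganglia, 0.032 to 0.168 across sexes in DRG and -0.098 to 0.010 in TG, and 4 of 6 DRG libraries correlated best with their own number. Of the 6 values across ganglia all were positive and 4 were over 0.1, and the sources do not say that equal numbers mark the same animal. The numbers were not taken to pair the libraries, which leaves a shared animal possible. With the replicate block, TG against DRG called 562 genes, with Asic3 at 0.89 (edgeR adjusted p = 0.000606), Asic2 at -0.54 (0.0976) and Piezo2 at -0.01, and the sex effects were -1.39 for Tmc1 in DRG and, in TG, 0.26 for Tmc1 and 1.02 for Piezo1, which then did not meet the criteria.

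Depth limits Tmc1, Tmc2 and Stoml3 most, since 3 reads were worth up to 0.399 CPM.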

Other observations

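A pair of further pathway genes had an unadjusted p under 0.05 for TG against DRG without passing the adjusted threshold, and they were singled out after their values were seen. Kcnk2, a potassium channel opened by membrane stretch, averaged 33.3 ± 9.04 CPM over TG libraries and 19.3 ± 8.41 CPM over DRG libraries (SD over n = 6 each), and its log2 fold change was 0.83 with an SE of 0.25 (adjusted p by edgeR 0.177). Pcdh15, a component of hair cell tip links, averaged 2.61 ± 1.56 CPM over TG and 5.77 ± 2.05 CPM over DRG libraries, and its log2 fold change was -1.21 with an SE of 0.55 (adjusted p by edgeR 0.531). Scnn1a, a subunit of the epithelial sodium channel, was listed at 0 in all DRG libraries and at 0.552 ± 0.761 CPM in TG, with at most 24 reads in a library.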
